A study of Homo sapiens with 17 samples.

Results

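The transcripts held by the cytoplasmic poly(A)-binding protein PABPC were compared with those of the lysate they were drawn from. For each gene the level in the PABPC immunoprecipitate (IP) was set against that in the Input, in TPM, a unit of transcript abundance scaled to gene length and to the total of the library. All genes that reached 5 TPM on both sides were taken. This gave 9048 of the 18869 genes in the table, of which 16905 have a TPM value and 1964 have none.

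The RNA came from HEK293T cells, an established human embryonic kidney line, that carry a stably inserted construct switched on by doxycycline. In RPS2-STAMP cells it encodes the cytidine deaminase APOBEC1 fused to the small-subunit ribosomal protein RPS2, and in Control-STAMP cells APOBEC1 on its own. Both lines received doxycycline at 50 ng/ml for 24 h and were crosslinked in 0.1% formaldehyde, after which lysates were made in RIPA buffer with sonication, endogenous PABPC was precipitated with an antibody, and ribosomal RNA-depleted, strand-specific libraries were sequenced. The series holds 17 samples, of which 11 are Input or PABPC IP: 3 Control-STAMP Inputs, 2 Control-STAMP PABPC IPs, 3 RPS2-STAMP Inputs and 3 RPS2-STAMP PABPC IPs. The study describes PABPC IPs from total extract of HEK293T cells and from the cytoplasmic portion of cells with the constructs, while the sample labels state no fractionation. By their labels all 17 samples are of cells with the constructs. For such cells the study set each IP against a total cytoplasmic Input. The table holds 1 average TPM per gene for the Input and 1 for the PABPC IP, with no value for a single sample. The column names do not say which samples or extracts were averaged, the table gives no read counts, and it has no column for a control IP. Every value below is therefore the authors' mean or is computed from 2 such means, and no SD, n or p-value can be given. The differences described have no replicate check.

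PABPC coats the poly(A) tails of mRNAs in the cytoplasm through its RNA recognition motifs, and contacts the initiation factor eIF4G at the capped end as well as the termination factor eRF3. Its nuclear relative PABPN (PABPN1) binds the tail while it is being made. Most mRNAs and many long non-coding RNAs (lncRNAs) end in a tail placed downstream of a poly(A) signal, usually AATAAA. Replication-dependent histone mRNAs end in a short stem-loop bound by SLBP, and most RNAs made by RNA polymerase III, such as 7SK and the signal recognition particle RNA 7SL, end in a run of U. Comparing a PABPC IP with its Input asks which of these RNAs the protein holds more or less than others.

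The ends of a few transcripts are shown because the replication-dependent and replication-independent histone genes did not overlap in the comparison. The last 30 bases are printed 5′ to 3′ from the hg38 transcript models of GENCODE release 44, with the histone stem-loop (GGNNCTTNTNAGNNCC, 16 bases) or the poly(A) signal (AATAAA or ATTAAA) in capitals. The first 3 are replication-dependent histones and the next 2 are replication-independent ones. The last 2 are the mRNAs with the highest PABPC IP over Input ratios. The tail itself is not part of the genome sequence.
H4C4 (chr6:26188710-26188739, minus strand): aaaaccaacGGCCCTTTTCAGGGCCaccta
H2AC17 (chr6:27892699-27892728, minus strand): aagacaaaaGGCTCTTTTCAGAGCCaccca
H1-2 (chr6:26055740-26055769, minus strand): aaacccaaaaGGCTCTTTTCAGAGCCacca
H2AX (chr11:119093874-119093903, minus strand): attttATTAAAggattgttttttttttaaa
H2AZ1 (chr4:99948088-99948117, minus strand): ggataagttcAATAAAggtcatatcccaaa
RPS27 (chr1:153992126-153992155, plus strand): tctcAATAAAcacattttggataaatcctg
GPX4 (chr19:1106750-1106779, plus strand): ctaccttgtgggAATAAAcagacaaattag

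A few RNAs took up much of the Input. 7SK was listed at 174271 TPM in the Input against 1725 in the PABPC IP, and the 7SL gene RN7SL1 at 128398 and 5547. With RN7SL3 and ENSG00000282885, a lncRNA gene with the 7SL copy RN7SL2 inside an exon, these 4 genes made up 38.8% of all Input TPM and 0.846% of PABPC IP TPM. Cytosolic ribosomal protein mRNAs made up 6.54% of the Input and 17.5% of the PABPC IP, replication-dependent histones 7.01% and 0.719%, and mitochondrially encoded mRNAs 6.19% and 2.46%.

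TPM is a share, so RNAs that leave the pool raise the listed values of those that remain. Over the 9048 genes the log2 ratio of PABPC IP to Input had a median of 1.00, and 94.6% of the genes had a higher TPM in the IP. With both columns rescaled after the 4 7SK and 7SL genes were taken out, the median was 0.30. Each ratio was therefore centred on the median of all genes compared, and a centred log2 ratio above 0.5 (1.41-fold over the median gene) is called enriched here and one below -0.5 depleted. These words describe 2 averages and no test, and the share of a list past a threshold is to be read beside the shares over all genes given next.

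By this measure 795 genes were enriched with PABPC, 8.79% of those compared, and 1753 were depleted, or 19.4%. Without centring, 7285 genes lay above 0.5 and 112 below -0.5, so each direction given here is relative to the median gene. The quartiles were -0.38 and 0.29. The spread was uneven, since the highest ratio was 1.60 and the lowest -7.66. Only 23 genes (0.254%) lay above 1, against 482 (5.33%) below -1.

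**Figure D1:**
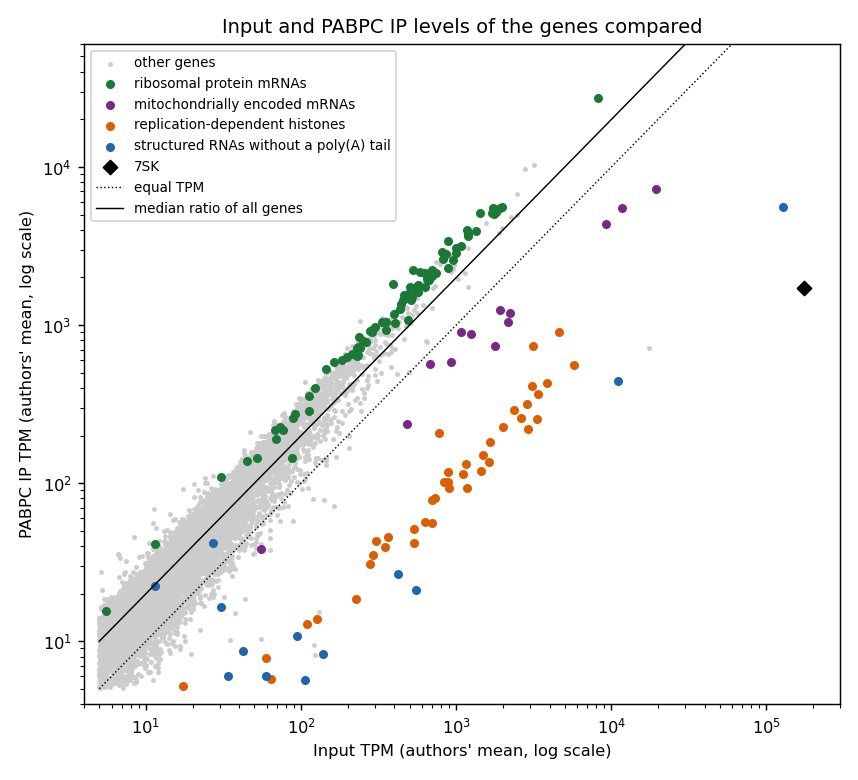
Input TPM (horizontal) against PABPC IP TPM (vertical), both log scales, 1 point for each of the 9048 genes; the dotted line is equal TPM and the solid line the median ratio. Replication-dependent histones, 7SK, 7SL and the mitochondrially encoded mRNAs fall below the dotted line, and nearly all ribosomal protein mRNAs lie above the solid line.

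The TPM minimum acts unevenly on the 2 sides. In 8560 of the 9048 genes the Input held the lower value. A further 84 genes had an Input TPM of at least 5 and a PABPC IP TPM under 5, and 1530 genes the reverse. The 594 genes whose lower TPM was between 5 and 6 had a median ratio of -0.19, and the 683 genes between 4 and 5, just outside, -0.20. Among genes that failed it on a single side only, the minimum thus removed most through a low Input. Genes under 5 TPM on both sides were removed as well. The minimum left few members of several lists of non-coding genes.

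Protein-coding genes made up 8600 of the genes compared and had a median ratio of -0.01, with 708 enriched and 1667 depleted. lncRNAs followed at 0.14 over 246 genes, of which 30 were enriched (12.2%, against 8.79% of all genes) and 39 depleted (15.9%, against 19.4%). Processed pseudogenes, intronless copies of mRNAs, lay highest of the biotypes with over 10 genes. Their median over 70 genes was 0.69, with 47 enriched (67.1%) and 4 depleted (5.71%). The unprocessed_pseudogene biotype had a median of -0.60 over 15 genes, among them MTCO1P12 and MTND2P28, nuclear copies of mitochondrial DNA. The 6 misc_RNA genes had a median of -5.23 with 5 depleted and 1 enriched, and the 5 snRNA genes, all depleted, -4.12. The 4 snoRNA genes had a median of -2.79, with only 2 depleted. The 4 miRNA genes had a median of -1.11, with 3 depleted and 1 enriched. The non-coding biotypes compared thus differed from one another. The medians of the small misc_RNA and snRNA classes lay far below the median gene and that of lncRNAs near it, while the 4 snoRNA genes were divided.

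**Figure D2:**
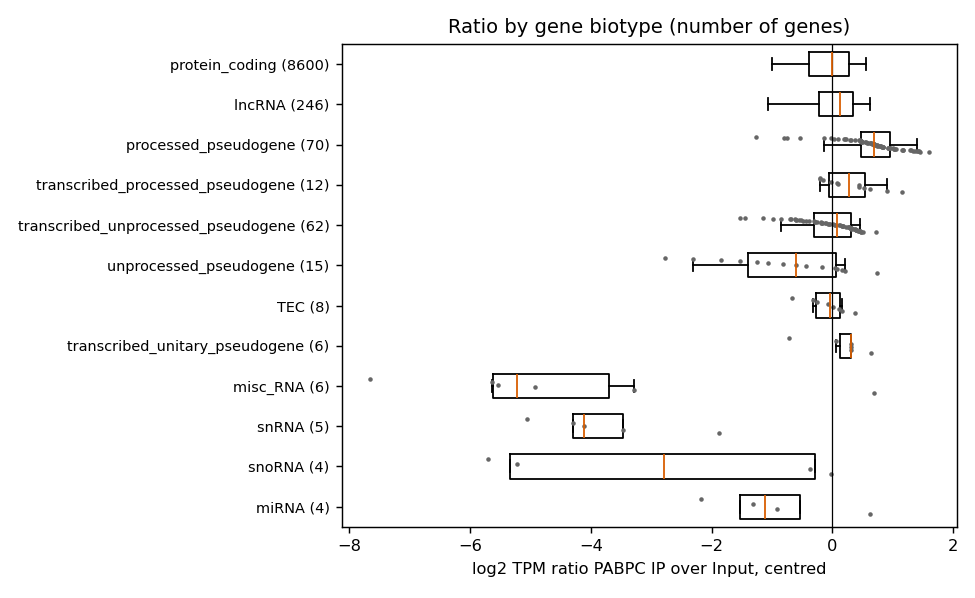
Centred log2 ratio of PABPC IP over Input TPM for each gene biotype, with the number of genes in brackets; boxes are quartiles, the orange line the median, whiskers the 5th and 95th percentiles, and dots single genes where a biotype has at most 80. Protein-coding genes and lncRNAs are centred near 0 and processed pseudogenes lie to the right. The snRNA genes and all but 1 of the misc_RNA genes lie far to the left.

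Histone genes with at least 5 TPM on both sides divided completely by type. Replication-dependent histones, which supply chromatin in S phase, were compared for 41 of 60 genes, 33 on chromosome 6, 7 on chromosome 1 and 1 on chromosome 12. All 41 were depleted, against 19.4% of all genes, with a median of -4.17 and a range from -4.73 for H4C4 to -2.72 for H3C6. H4C4 was listed at 2916 TPM in the Input against 219.5 in the PABPC IP, and H2AC17 at 5728 against 560.2. The 12 protein-coding genes with the lowest ratios were all of this class. The linker and core types lay close together, with medians of -4.15 for H1, -4.37 for H2A, -4.14 for H2B, -4.38 for H3 and -4.12 for H4. The 19 replication-dependent genes not compared were under 5 TPM in the Input or the IP. Over the 45 with an Input TPM of at least 5 the median was also -4.17. Those added to the 41 were under 5 TPM in the IP, so their selection made them low and this is no check. Below the minimum, H2BC9 (1.04 and 2.13 TPM) was at 0.03 and H4C9 (0.385 and 0.545 TPM) at -0.50, inside the range of the replication-independent genes.

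The replication-independent histones, which have ordinary tailed mRNAs and are made throughout the cell cycle, ranged from -0.73 to 0.43 over 9 genes, with a median of 0.19, so the groups did not overlap. H2AZ1, a variant of H2A placed near promoters, had 555.5 TPM in the Input against 1491 in the PABPC IP, and H3-3B, which encodes the H3.3 variant, 125.2 and 308.7. H2AX, the variant phosphorylated at DNA breaks, was the only depleted gene of the 9, at -0.73 (649.6 and 780.5 TPM). It is known to make both a stem-loop form and a tailed form of its mRNA, and the transcript model printed above is the tailed one.

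**Figure D3:**
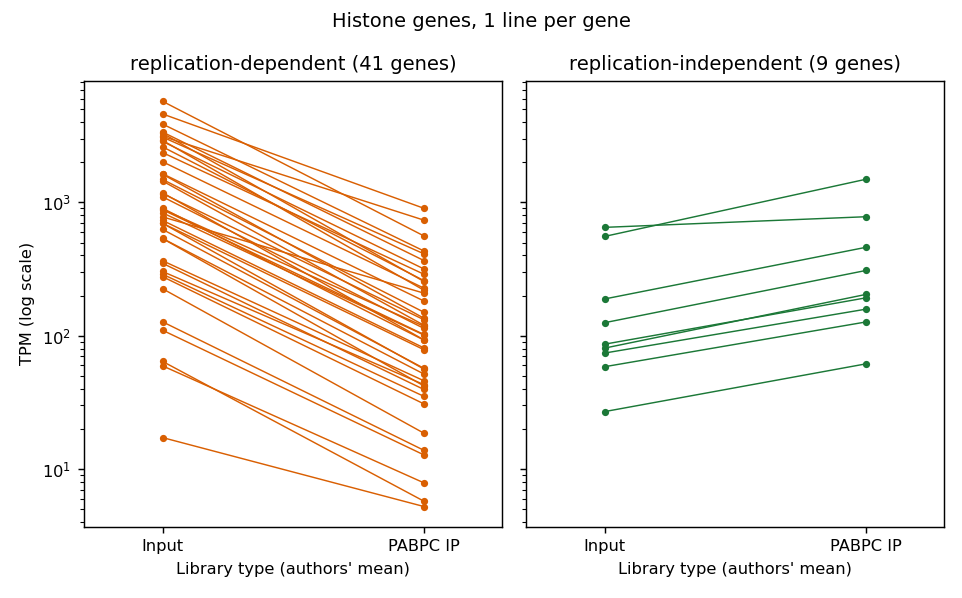
TPM before (Input) and after PABPC IP (log scale), 1 line per gene, for 41 replication-dependent and 9 replication-independent histone genes. All 41 lines on the left run down and all 9 on the right run up.

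The stem-loop pattern was searched on the transcribed strand in the last 100 bases of the transcript models. It was found in 40 of the 9040 genes with a model, or 0.442%, and all 40 were replication-dependent histones. The gene of that class without a match, H2BC21, has AATAAA at the end of its model, yet its ratio of -4.18 (733.3 TPM in the Input, 81.0 after PABPC IP) lay in the middle of the class. None of the 9 replication-independent models held the pattern. Among the other protein-coding genes, AATAAA was present in the last 40 bases of 65.3%, and their median was -0.02, close to the 0.01 of those without it.

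Structured RNAs made without a poly(A) tail lay lowest of all lists. Of 288 genes with such names, 246 have no TPM and 29 were below the minimum, which left 13 with a median of -4.30. 11 of the 13 were depleted (84.6%, against 19.4% of all genes). SNORD3A, a gene for the U3 RNA of pre-ribosomal RNA processing, was at -5.70 (550.2 TPM in the Input, 21.2 in the IP), RN7SL3 at -5.64 and RN7SL1 at -5.53. TERC, the RNA template of telomerase, was at -4.97 (419.6 and 26.7 TPM), the U1 variant RNVU1-27 at -5.06, and the Y RNA RNY1 at -3.29. The exceptions were the H/ACA guide RNAs SNORA80C (-0.37) and SNORA11F (-0.02). The 30 genes of the list with an Input TPM of at least 5 had a median of -5.57. Those added to the 13 were under 5 TPM in the IP, so a lower median follows from their selection. 7SK, which binds and holds back the elongation factor P-TEFb, is listed under a symbol outside the pattern and had the lowest ratio of any gene, -7.66.

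Structured RNAs were also among the genes left out for a low IP value. The 84 genes with at least 5 TPM in the Input and under 5 in the PABPC IP comprised 38 protein-coding genes, 15 lncRNAs, 14 snRNAs, 9 misc_RNAs, 5 pseudogenes, 2 snoRNAs and 1 unclassified (TEC) gene. The 10 with the highest Input TPM were the U5 gene RNU5F-1 (174.3 TPM in the Input, 3.02 in the IP), RNVU1-18, RNVU1-7, SNORD3B-2, the vault RNA gene VTRNA1-3 (87.7 and 3.99), RNVU1-29, RNU5B-1, RNU4-2, SNORD3B-1 and RNVU1-22. These 10 are spliceosomal, nucleolar and vault RNAs, while protein-coding genes were the most numerous class among the 84.

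Mitochondrially encoded mRNAs, which are transcribed and translated inside the organelle and mostly tailed there, formed a class between the histones and the rest. All 13 were depleted, against 19.4% of all genes. They ranged from MT-CO1 at -2.42 to MT-ATP8 at -1.25, with a median of -1.91. MT-CO1, a catalytic subunit of cytochrome oxidase, had 19312 TPM in the Input against 7230 in the PABPC IP, and MT-CO3 11770.3 and 5535. MT-ND6, a complex I subunit coded on the opposite strand, was lower in level (55.2 and 38.6 TPM) and had a ratio of -1.51, within the range of the others. Nuclear copies of mitochondrial DNA were also low. MTCO1P12 was at -2.31 and MTND2P28 at -1.84, and their reads cannot be told apart from those of the organelle where the sequences are identical.

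Nuclear genes for the same respiratory complexes lay on the other side of the median. Of 82 genes for oxidative phosphorylation subunits 80 were compared, with a median of 0.48, 39 enriched and 2 depleted, against 8.79% and 19.4% of all genes. Complex IV lay highest, with a median of 0.67 and 9 of 11 enriched. Complex I had a median of 0.49 over 38 genes, ATP synthase (complex V) 0.45 over 18, complex II 0.34 over 4 and complex III 0.32 over 9. The highest were NDUFA1, a small accessory subunit of complex I, at 1.04 (106.7 and 439.3 TPM) and ATP5ME at 0.93, and the lowest were NDUFS1 at -0.73 and SDHA at -0.71, both large catalytic-core subunits. Mitochondrial ribosomal protein mRNAs had a lower median of 0.26 over 77 genes, with 14 enriched and 2 depleted, from MRPL33 at 0.78 to MRPS30 at -0.72.

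mRNAs for the cytosolic ribosome had the highest medians of the protein-coding lists. Of 53 large-subunit genes 52 were compared, with a median of 0.61, 39 enriched and none depleted. All 33 small-subunit genes were compared, with a median of 0.66, 31 enriched and none depleted. RPS27L, a paralogue of RPS27, was just under the threshold at 0.49. Over both subunits, 70 of 85 were enriched (82.4%, against 8.79% of all genes). RPS27 had the highest ratio of any protein-coding gene, 1.22, and went from 390.2 TPM in the Input to 1818 in the PABPC IP. RPS21 at 0.94 and RPLP1, a stalk protein, at 0.90 were also among the 12 highest. RPL7L1, a biogenesis factor related to RPL7, was the lowest at -0.29, and RPL23A was at 0.14.

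RPS2 had the highest PABPC IP level of any gene, 27182 TPM against 8171 in the Input, a ratio of 0.74. The RPS2-STAMP construct encodes RPS2, so reads from it and from the endogenous gene cannot be told apart. The processed pseudogene RPS2P5 was the next highest in the IP, at 10262 TPM against 3191 in the Input, and had a ratio of 0.69. It shares its sequence with RPS2, so its reads may be those of RPS2 or of the construct. The remaining genes of the 5 highest were MIF, a secreted cytokine (2777 and 9709 TPM, 0.81), MT-CO1, and EEF1A1.

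Ribosomal protein mRNAs usually begin with a terminal oligopyrimidine tract, a C followed by a run of C and T, through which LARP1 and growth signalling regulate their translation. A start with C and at least 4 further pyrimidines was present in 61 of 85 ribosomal protein models, or 71.8%, against 6.04% of all 8598 protein-coding models. The 61 had a median of 0.64 and the 24 without it 0.56. Outside ribosomal protein genes the median was 0.09 with such a start and -0.02 without. The annotated first 20 bases are printed for members with high ratios, tract in capitals, and GPX4 shows a start without one.
RPS27 (chr1:153990762-153990781, plus strand): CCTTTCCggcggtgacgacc
EEF1A1 (chr6:73521013-73521032, minus strand): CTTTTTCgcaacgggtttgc
GPX4 (chr19:1103994-1104013, plus strand): attggtcggctggacgaggg

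Other parts of the translation apparatus differed from one another. Elongation and release factors had a median of 0.33 over 10 genes, with 3 enriched (30% against 8.79% of all genes) and 1 depleted. EEF1B2, EEF1G and TPT1, a small translation-associated protein, were enriched at 0.59, 0.51 and 0.52, EEF1A1, which brings aminoacyl-tRNA to the ribosome, was at 0.47 (2454 and 6770 TPM), and EEF2, the translocase, at 0.10 (2257 and 4832 TPM). GSPT1, which encodes the eRF3 that PABPC contacts, was the depleted member at -0.51. Initiation factors had a median of -0.02 over 42 genes with 1 enriched (2.38%) and 5 depleted (11.9%), both below the shares over all genes, 8.79% and 19.4%. Within eIF3 the ratio ran from 0.51 for EIF3E to -1.17 for EIF3A, the largest scaffold subunit. EIF4G1, the PABPC partner, was at -0.83 (128.0 and 143.4 TPM), and EIF5B, a GTPase of subunit joining, was lowest at -1.31.

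Cytosolic aminoacyl-tRNA synthetases, which charge tRNAs, had a median of -0.51, with 10 of 20 depleted, against 19.4% of all genes, and none enriched. AARS1 was lowest at -1.15 and QARS1 highest at 0.24. Ribosome biogenesis factors had a median of -0.26 over 52 genes, with 18 depleted (34.6%), among them the large processome protein UTP20 at -1.67, and 2 enriched, the box H/ACA proteins NHP2 (0.73) and NOP10 (0.54).

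mRNAs for the poly(A)-binding proteins and their partners were spread around the median. PABPC1 itself was at 0.49 (466.1 TPM in the Input, 1305 after PABPC IP), PABPN1 at 0.43, and the PABPC inhibitor PAIP2 at 0.22. PABPC4 was at -0.33, LARP1 at -0.28 and LARP4B at -0.60, the only member past the threshold. Deadenylases of the CCR4-NOT and PAN2-PAN3 complexes, which shorten the tail, had a median of -0.29 over 16 genes. The catalytic subunit CNOT7 was enriched at 0.54 and the scaffold CNOT1 depleted at -0.73. Nonsense-mediated decay factors had a median of -0.46 over 14 genes, 7 depleted (50% against 19.4% of all genes) and none enriched. Their median coding length was 2541 nt, and 57.2% of protein-coding genes in the longest quintile of coding length were depleted. The helicase UPF1 and the kinase SMG1 were at -1.05 and -1.03, and the exon junction proteins MAGOH and RBM8A at 0.17 and 0.13.

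Genes for nuclear RNA processing lay mostly below the median. DEAD/DEAH-box helicases, which unwind RNA, had the lowest median of any list of 8 or more nuclear protein-coding genes outside the replication-dependent histones, -0.66, with 25 of 45 depleted (55.6%, against 19.4% of all genes) and none enriched. Factors of 3′ end processing and the exosome had a median of -0.49, with 16 of 33 depleted (48.5%), from the cleavage factor PCF11 at -1.13 to the exosome subunit EXOSC5 at 0.42. The m6A machinery had a median of -0.44, with 8 of 17 depleted (47.1%), including the writer subunits RBM15 (-1.41), VIRMA (-1.04) and METTL3 (-1.02). hnRNP proteins lay at -0.33 and SR splicing factors at -0.14. The kinases CLK1 and CLK2, which phosphorylate SR proteins, were at -1.48 and -0.55.

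Core spliceosome genes ranged from -1.58 to 0.78. The median of 50 genes was 0.04, with 12 enriched (24% against 8.79% of all genes) and 13 depleted (26% against 19.4%). The highest were the small Sm and LSm ring proteins SNRPG at 0.78 (92.4 and 317.1 TPM), LSM2 at 0.74 and SNRPF at 0.69. The lowest were the large U5 proteins PRPF8 (119.3 and 79.6 TPM) and SNRNP200, at -1.58 and -1.39, and SF3B1, the U2 component that holds the branch site, was at -1.13. mRNA export factors had a median of 0.21 over 13 genes, with none enriched and 2 depleted, THOC2, the largest THO subunit, at -1.35 and the export receptor NXF1 at -0.52.

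Chromatin regulators and cell cycle genes were below the median. Histone lysine methyltransferases and demethylases had a median of -0.50, with 19 of 39 depleted (48.7%, against 19.4% of all genes) and 1 enriched, SETD9 at 0.54. Their median coding length was 3963 nt. In the longest quintile of coding length, from 2325 nt, 57.2% of protein-coding genes were depleted, a larger share than in this list. KMT2D was at -1.50, KMT2C at -1.41 and SETD2 at -1.23. The numbered zinc finger (ZNF) genes, most of them DNA-binding repressors, gave 177 comparable genes of 423, with a median of -0.32, 66 depleted (37.3%) and 5 enriched, from ZNF124 at -2.24 to ZNF664 at 0.65. DNA replication genes had a median of -0.38, with 17 of 45 depleted (37.8%), POLA1 of the primase complex at -1.09 and MCM4 of the helicase at -0.91. 3 were enriched, the histone-fold subunit POLE4 at 0.71, RPA3 at 0.56, and POLD2 at 0.50. Centromere proteins and kinesins had a median of -0.30, from CENPX at 0.74 to KIF20B at -1.47.

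Selenoproteins, in which a UGA codon is read as selenocysteine, stood high with a median of 0.60, 10 of 17 enriched (58.8%, against 8.79% of all genes) and 1 depleted. GPX4, which reduces lipid peroxides, was the highest at 1.13 (241.3 TPM in the Input, 1057 after PABPC IP) and second among all protein-coding genes. SELENOM was at 0.90, SELENOH at 0.83 and GPX1 at 0.76. SELENOI, whose enzyme makes phosphatidylethanolamine, was lowest at -0.69 and the thioredoxin reductase TXNRD1 was at 0.10. In the polyamine pathway 4 of 9 genes were enriched with a median of 0.41, among them OAZ1, the frameshifted antizyme, at 0.60 and ODC1, the enzyme it inhibits, at 0.52.

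mRNAs of metabolism and cell structure differed by family. GAPDH (2463 and 4961 TPM) was at 0.01 and ACTB (1891 and 3819 TPM) at 0.02. Glycolytic enzymes had a median of -0.38 with 6 of 16 depleted (37.5%, against 19.4% of all genes), with HK2 at -0.90 and TPI1 at 0.29. Tubulins lay at -0.15 with none past either threshold. Actin and its binding proteins were split, with MYL6 at 0.70, the thymosin TMSB10 at 0.58 and profilin PFN1 at 0.58, and the myosin heavy chain MYH9 at -1.26 and filamin FLNA at -0.92. Proteasome subunits had a median of 0.08, from the catalytic immunosubunit PSMB10 at 0.77 to the base subunit PSMD1 at -0.996. Heat shock proteins and J-domain co-chaperones lay at -0.13, and the CCT chaperonin at -0.37.

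Of the lists for secretion and membranes, 4 had medians above 0. Translocation and N-glycosylation genes had a median of 0.12, with SSR4 highest at 0.56, RAB GTPases 0.21, SLC transporters 0.14 and TMEM genes 0.28. Cholesterol genes had a median of -0.09. Among mRNAs with short lives the median was -0.37, with CCNL1 at -1.58 and ID3 at 0.32. Integrated stress response mRNAs lay at -0.03, and ATF4, whose translation is controlled by upstream open reading frames, was at 0.50 (663.0 and 1879 TPM). Ubiquitin-specific proteases had a median of -0.45, with 15 of 36 depleted (41.7%, against 19.4% of all genes). Their median coding length was 2751 nt, and 57.2% of protein-coding genes in the longest quintile of coding length were depleted.

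**Figure D4:**
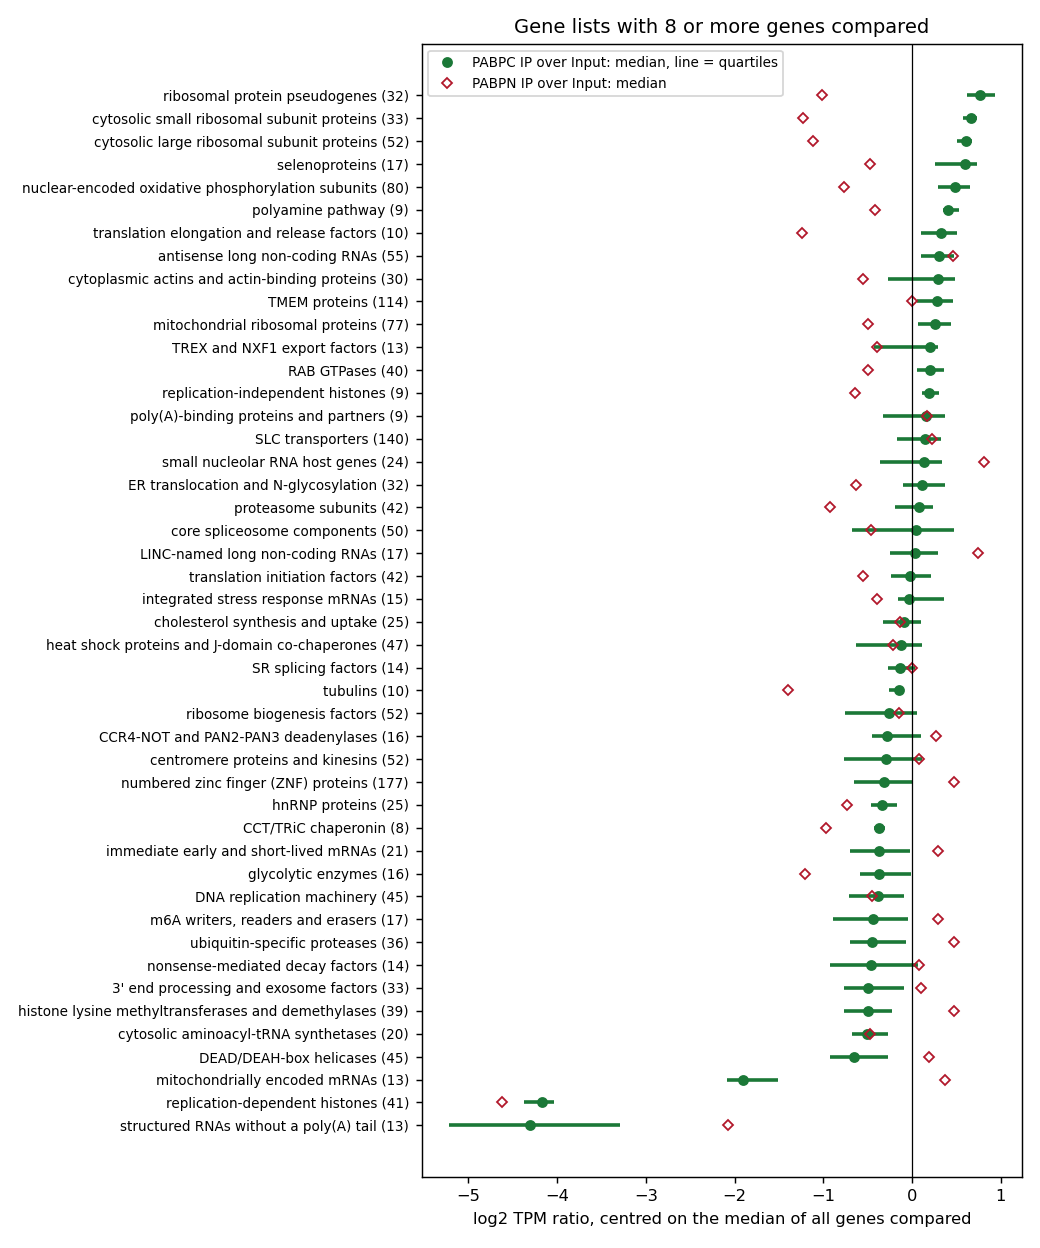
Median centred log2 ratio (green, line from lower to upper quartile) of each gene list with at least 8 genes compared, in order, with the number of genes in brackets; red diamonds are the medians of PABPN IP over Input for the same genes. Ribosomal protein genes and pseudogenes are highest in green, and structured RNAs, replication-dependent histones and mitochondrially encoded mRNAs are the lowest.

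The length of the coding sequence ordered the protein-coding genes more closely than any other feature measured. In quintiles of coding length, taken from the canonical transcript models of 8595 genes, the median ratio went from 0.37 in the shortest quintile (median 495 nt) through 0.17, -0.02 and -0.21 to -0.60 in the longest (median 3210 nt). In the shortest quintile 532 of 1719 genes were enriched and 56 depleted, and in the longest 4 were enriched and 984 depleted. The Spearman correlation with the ratio across genes, which are not independent replicates, was -0.67 for coding length, -0.52 for transcript length, -0.46 for exon number, -0.22 for the length outside the coding sequence, -0.26 for the longest run of A, and 0.19 for GC content. For Input TPM, the denominator of the ratio, it was 0.30, with medians from -0.18 in the lowest quintile to 0.26 in the highest. By transcript length the shortest and longest quintiles had medians of 0.34 and -0.41.

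The same order appeared inside families. In 41 lists with at least 8 coding genes the correlation with coding length was below 0 in 39, with a median of -0.60, from -0.90 in the core spliceosome to 0.47 in the tubulins. RAB GTPases were near 0, at -0.0053. Across all 8595 protein-coding genes the correlation was -0.67, and some genes are in more than 1 list. The list values are therefore not a result separate from that over all genes. In 37 of the 41 the lowest gene had a longer coding sequence than the highest. SNRPG codes over 228 nt and PRPF8 over 7005, NDUFA1 over 210 and NDUFS1 over 2181, THOC6 over 1023 and THOC2 over 4779, and CENPX over 243 and KIF20B over 5460. The 12 lowest protein-coding genes outside the replication-dependent histones and mitochondrially encoded genes, a set drawn up after the values were seen, included MDN1 (16788 nt, -1.88), UBR4 (15549 nt, -1.82), FAT1 (13764 nt, -1.83), MGA (9342 nt, -1.89) and CEP192 (7611 nt, -1.97). Shorter ones among the 12 were ZNF124 (1053 nt, -2.24), RBM5 (2445 nt, -1.83), SP9 (1452 nt, -1.74) and TMEM107 (420 nt, -1.91), whose exon holds the small nucleolar RNA gene SNORD118. Counting error per gene is unknown in these averages.

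**Figure D5:**
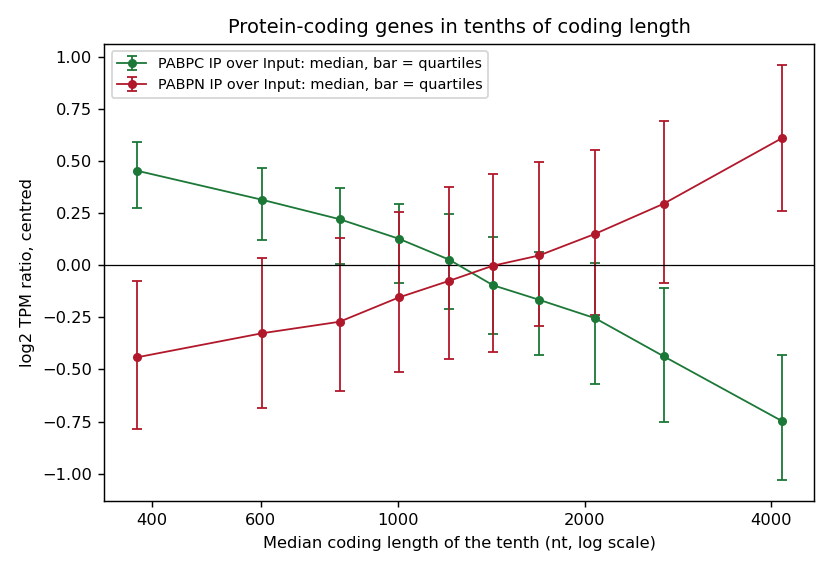
Median centred log2 ratio of protein-coding genes in deciles of coding length (horizontal axis, nt, log scale), with bars from lower to upper quartile, for PABPC IP over Input (green) and PABPN IP over Input (red). The green medians fall from 0.45 in the shortest decile to -0.75 in the longest, and the red medians climb from -0.44 to 0.61.

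Some families stood apart from the other genes of their length quintile. Genes within a quintile still differ in length, and the shortest quintile, from 75 to 696 nt, held deciles with medians of 0.45 and 0.31. Oxidative phosphorylation and ribosomal protein genes had median coding lengths of 417 and 444 nt, below the 495 nt of that quintile, so the values are not matched on length. Within the shortest quintile the 27 small-subunit and 43 large-subunit ribosomal protein genes had medians of 0.66 and 0.64, against 0.37 for the other genes of that quintile in each case. Oxidative phosphorylation genes there had 0.57 over 62 genes, also against 0.37. In longer quintiles they were fewer and not apart in one direction, at 0.23 against 0.17 over 8 genes and -0.14 against -0.02 over 6. Mitochondrial ribosomal protein genes were at 0.39 against 0.37 in the shortest quintile, 0.11 against 0.17 in the next and -0.26 against -0.02 after that. TMEM genes were at 0.41 against 0.37 in the shortest quintile and at -0.07 against -0.60 in the longest, where they number 5. The replication-dependent histones, all of which lie in the shortest quintile, were at -4.17 against 0.38. SLC transporters were above the other genes in the quintiles where at least 5 were compared, from 0.26 against 0.17 in the second shortest to -0.47 against -0.60 in the longest. ZNF genes were at -0.21 against -0.02 in the middle quintile, below the other genes in the second longest, at -0.43 against -0.20, and near them in the longest, at -0.62 against -0.60. These lists were picked for this view after their medians were seen.

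lncRNAs covered a wide range around a median of 0.14. The 6 lowest were ENSG00000282885 at -5.63, TERC, ENSG00000276216 at -4.66 (with the U1 variant RNVU1-14 inside an exon), ENSG00000262202 at -4.09 (with SNORD3D), MALAT1 at -3.41 and SNHG17 at -2.21. MALAT1, a nuclear RNA whose 3′ end is a triple helix in place of a tail, had 55.0 TPM in the Input against 10.3 in the PABPC IP. NEAT1, the RNA scaffold of paraspeckles, was under the minimum at 4.27 and 3.25 TPM. Of 8 lncRNAs listed as nuclear-retained, 2 were compared, MALAT1 and JPX, the latter at 0.02. lncRNA genes with a small structured RNA gene inside an exon numbered 31 and had a median of -0.07, against 0.15 for the other 215, and their share of reads from the embedded RNA cannot be told from these values.

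Of 4 lncRNAs listed as cytoplasmic, 2 were compared and the others were under the minimum. NORAD, which sequesters Pumilio proteins, was at -0.21 (102.8 and 177.1 TPM) and OIP5-AS1 at 0.06. Small nucleolar RNA host genes had a median of 0.13 over 24 genes. Of these, 5 were enriched (20.8%, against 8.79% of all genes) and 4 depleted (16.7%, against 19.4%). SNHG6 (0.74), SNHG5 (0.71), SNHG9 (0.67), DANCR (0.65) and SNHG29 (0.56) were enriched, GAS5 was at 0.15, and SNHG17, SNHG12 (-1.47), SNHG4 (-0.72) and SNHG25 (-0.53) were depleted. Of 480 antisense lncRNAs, 413 were below the minimum and 12 had no TPM. The other 55 had a median of 0.30, with 12 of 55 enriched (21.8%, against 8.79% of all genes) and 4 depleted, and the median was 0.16 over 232 genes with a minimum of 1 TPM. They ranged from ZNF232-AS1 at 0.73 to SLC5A4-AS1 at -0.93. The other lncRNAs among the 6 highest were CH17-340M24.3 at 1.11 (7.46 and 32.1 TPM), LINC01976 at 0.88, ENSG00000255020 at 0.81 and PDCD4-AS1 at 0.72. LINC-named genes had a median of 0.03 over 17 genes, with 225 of 251 below the minimum.

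Pseudogenes that copy ribosomal protein genes lay beside those genes. Of 223 named for ribosomal proteins, 64 had no TPM and 127 were below the minimum. The other 32 had a median of 0.76, beside 0.63 for the 85 ribosomal protein genes themselves. Of the 32, 25 were enriched (78.1%, against 8.79% of all genes) and none depleted. RPL12P4 was highest at 1.41 (5.16 TPM in the Input, 27.4 in the IP). The 3 highest of all pseudogenes were ENSG00000250321 at 1.60 (11.3 and 68.3 TPM), ENSG00000227081 at 1.45 and ENSG00000230979 at 1.43. The lowest was GUSBP14, a copy of the beta-glucuronidase gene, at -2.77. How the counting split reads between near-identical copies is not known for single genes here, so no pseudogene value is taken to show transcription of the copy. The 41 processed pseudogenes with other names had a median of 0.63.

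Genes with under 5 TPM in the Input and at least 5 in the PABPC IP numbered 1530, of which 1096 code for protein, 264 are lncRNAs and 161 pseudogenes. Most of the 10 with the highest IP level were processed pseudogenes, led by RPSAP47 (4.39 and 22.1 TPM) and RPL35P5 (4.25 and 21.5 TPM), and RNU6-8, a copy of the U6 RNA gene, was also among them (4.78 and 16.8 TPM). BCYRN1, a 200 nt polymerase III transcript (chr2:47335315-47335514) with an internal A-rich stretch that PABPC is known to bind, was the eighth, at 4.10 TPM in the Input against 16.1 in the PABPC IP. Its ratio would be 0.97 on the centred scale, and that for PABPN 2.56 (52.2 TPM). BCYRN1 and RNU6-8 entered this set through the IP, their higher side, so they are not comparable with genes kept on both sides. Of other polymerase III transcripts, RNU6-2 was at -1.88, RNY1 at -3.29 and RN7SL1 at -5.53. The 30 bases of BCYRN1 with the most A, 26 of 30, are printed with runs of 5 or more A in capitals. Its longest run is 11.
BCYRN1 (chr2:47335443-47335472, plus strand): gAAAAAAAAAAAcaaaagacAAAAAAAAAA

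PABPN IP over Input gives a point of reference for the same 9048 genes. For cells with the constructs, the study describes the PABPN IPs as made from the cytoplasmic portion too. The PABPN ratio shares the Input with the PABPC ratio, so the pair are not independent. Their values are only set side by side, each centred on its own median, which was 1.11 before centring for PABPN. Replication-dependent histones lay far below the median in both, at -4.17 for PABPC and -4.62 for PABPN. Structured RNAs were at -4.30 and -2.07. Mitochondrially encoded mRNAs differed in sign, at -1.91 with PABPC and 0.37 with PABPN. MT-CO1 was listed at 19312 TPM for the Input, 7230 for the PABPC IP and 95994 for the PABPN IP.

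Ribosomal protein mRNAs were at 0.63 with PABPC and -1.16 with PABPN, oxidative phosphorylation mRNAs at 0.48 and -0.77, elongation factors at 0.33 and -1.24, and selenoproteins at 0.60 and -0.48. ZNF mRNAs were at -0.32 with PABPC and 0.48 with PABPN, and histone lysine methyltransferases and demethylases at -0.50 and 0.47. Glycolytic enzymes were below the median in both, at -0.38 and -1.20, as were aminoacyl-tRNA synthetases at -0.51 and -0.48 and the CCT chaperonin at -0.37 and -0.97. lncRNAs were at 0.14 and 0.68, the first of which was 0.038 over 1060 genes with a minimum of 1 TPM. MALAT1 was at -3.41 with PABPC and 0.81 with PABPN. Across quintiles of coding length the PABPN medians were -0.38, -0.21, -0.03, 0.10 and 0.48, in the opposite order to those of PABPC, with a correlation across genes of 0.43. With no value for single samples, none of these differences between the IPs could be tested.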

How the data were processed

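Input, PABPC IP and PABPN IP RNA from Control-STAMP and RPS2-STAMP HEK293T cells was sequenced. According to the study's methods and the submitters' processing notes, reads were aligned to hg38 with STAR and counted with featureCounts 2.0.2 on an annotation derived from GENCODE release 34 without regions of overlapping genes or readthrough transcripts. The deposited values used are the authors' average TPM per fraction, in which exonic and intronic TPM were computed separately and added, so a gene's level includes its unspliced RNA. The deposited table also holds normalized EPKM, an editing rate, which was not used here. The 56607 rows give each of 18869 genes 3 times, so each gene was taken once.

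Genes with at least 5 TPM in the Input and PABPC IP were kept, log2 ratios were taken without a pseudocount and centred on their median, and 0.5 and -0.5 were used as thresholds. The members, the 50 gene lists and the thresholds were chosen with earlier results of these data known. Genes named are the 12 highest and 12 lowest protein-coding genes, 6 and 6 lncRNAs, 3 and 3 pseudogenes, the 10 highest on each side of the TPM minimum, the 5 highest in each fraction, the extremes of each list, and a fixed set of abundant or well-known RNAs; members of lists named beyond these were chosen after their values were seen, and a few genes that the rule names are not reported here. The canonical transcripts of GENCODE release 44 (hg38) supplied positions, lengths and sequences, and 18806 genes matched by identifier. The calculation was tested on simulated data. Alternatives changed the TPM minimum, centring, pseudocount, threshold and length measure. Calculations used pandas 2.3.3 and NumPy 2.4.6 under Python 3.11.15, correlations SciPy 1.17.1, and plots matplotlib 3.10.9. Tests between fractions were not run because the table holds averages only.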

Additional observations from a re-analysis of the deposited data

How the results depend on the processing

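No paired analysis was possible because the table holds 1 average per fraction, and leaving out a replicate could not be run for the same reason. The table gives no counts, so the counting error of genes near 5 TPM is not known here. The order of genes is the same under every centring, but the counts are not. Without centring, 7285 genes lay above 0.5 and 112 below -0.5, and the medians became 1.13 for lncRNAs, 1.31 for pseudogenes, 1.63 for ribosomal protein mRNAs, -3.17 for replication-dependent histones and 0.68 for ZNF mRNAs, the last with its sign turned. The sign also turned without centring for aminoacyl-tRNA synthetases (0.49), ribosome biogenesis (0.74), short-lived mRNAs (0.63), hnRNP proteins (0.66), DEAD/DEAH-box helicases (0.34), 3′ end factors (0.50), the m6A machinery (0.56), histone lysine methyltransferases and demethylases (0.50), DNA replication (0.61), centromere proteins and kinesins (0.70), cholesterol genes (0.91), the CCT chaperonin (0.63) and ubiquitin-specific proteases (0.55). It turned as well for other lists below the median, such as deadenylases (0.71), nonsense-mediated decay (0.54), glycolysis (0.62), SR factors (0.86), heat shock proteins (0.87) and tubulins (0.85). With a threshold of 1, 23 genes lay above and 482 below. With a minimum of 1 TPM, 1409 of 13005 genes were above 0.5, and with a minimum of 10 TPM, 475 of 6625. A minimum of 1 TPM gave medians of 0.038 for lncRNAs and 0.69 for ribosomal protein mRNAs, and a minimum of 10 TPM gave 0.56 for pseudogenes. A pseudocount of 1 TPM gave 0.68 for ribosomal protein mRNAs and -4.11 for histones. The difference between the shortest and the longest quintile, 0.76 by transcript length, was 0.69 by merged exon length, 0.70 with a minimum of 10 TPM, and 0.97 by coding length, an alternative chosen after seeing the data. With a minimum of 1 TPM, 47 of the 50 list medians stayed inside the binomial interval of the median with 5 TPM, and 3 did not, the large-subunit (0.66) and small-subunit (0.72) ribosomal proteins and antisense lncRNAs (0.16). That interval is wide for short lists, some of which changed within it, such as microRNA hosts from -0.59 to 0.11, poly(A)-binding proteins and partners from 0.16 to -0.0085, stress response mRNAs from -0.03 to 0.12, export factors from 0.21 to 0.093 and nonsense-mediated decay from -0.46 to -0.29. The large- and small-subunit lists held the same 52 and 33 genes with either minimum, so for them only the centring median moved. The cause of the other shifts was not tested, apart from the change in the genes or scale that each setting makes.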

Other observations

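Symbol stems, the letters before the number in a gene symbol, give a view of further families, although KIF and LSM genes are also in lists described above. They were ranked after the data had been seen, and no test was run. There were 138 stems with at least 8 protein-coding genes. Lowest were MT (-1.68), HSPA (-0.80), UTP (-0.78), MCM and KMT (both -0.76). Further stems below the median were EXOC, the exocyst tethering complex (median -0.75 over 9 genes, 6 below -0.5), and KIF, the kinesin motors (-0.74 over 24, 16 below -0.5). Others were NUP, the nucleoporins (-0.61 over 22, 13 below -0.5), and RBM, RNA-binding motif proteins (-0.57 over 29, 17 below -0.5). INTS, the Integrator subunits, lay at -0.48 over 13, with 6 below -0.5. The shares below -0.5 were 66.7% for EXOC and KIF, 59.1% for NUP, 58.6% for RBM and 46.2% for INTS, against 19.4% of all genes.

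At the other end, RPS (0.62), RPL (0.61), NDUFB (0.57), COX (0.55) and NDUFA (0.53) lay highest. Further stems there were SMIM, small integral membrane proteins (median 0.49 over 13 genes, 6 above 0.5), and COMMD, partners of the endosomal Commander complex (0.50 over 10, 5 above 0.5). LSM ring proteins (0.48 over 12, 6 above 0.5) and TSPAN tetraspanins (0.41 over 12, 2 above 0.5) followed. The mitochondrial import stems were TOMM (0.40 over 9) and TIMM (0.37 over 15). The shares above 0.5 were 46.2% for SMIM, 50% for COMMD and LSM and 16.7% for TSPAN, against 8.79% of all genes. Protein-coding genes with a small structured RNA gene inside an exon numbered 81 and had a median of 0.11, against -0.01 for the other 8519. HBQ1, the theta-globin gene, was among the 12 highest protein-coding genes, with 20.5 TPM in the Input against 81.3 after PABPC IP.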
